A study of Homo sapiens with 9 samples.

Results

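The genes described here are the cadherins and protocadherins that the array annotation names, which are the adhesion genes whose symbol starts with CDH or PCDH followed by a digit, or with PCDHA, PCDHB or PCDHG. They were chosen by symbol, with 1 probe set kept per gene, the one with the highest mean over the 9 arrays. This choice was made with earlier results of these data known. The rule found 36 genes of 14884 named genes, measured by 38 probe sets of 53617. Of the 36 genes, 16 are protocadherins of the clustered beta family, 3 are pseudogenes of that family, 13 are protocadherins outside the clusters, 2 are cadherins outside the classical families (CDH23 and CDH26) and 2 are antisense RNAs at the PCDH9 gene. No classical cadherin and no gene of the clustered alpha and gamma families has a named probe set here (0 of each), so these were not analysed here.

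RNA was measured in HEK293 cells, an established human embryonic kidney cell line, on 9 arrays in 3 equal groups. Naive cells labelled as lacking cumate make up the mock group. For the GPR39 group the labels give overexpression of GPR39, a zinc-sensing G protein-coupled receptor, with 0.03 mg/mL cumate, a small molecule that switches on engineered genes. For the agonist group they give the same overexpression with 1 uM TC-G-1008, a synthetic GPR39 agonist, and leave unsaid whether cumate was present. All groups share the HEK293 background and medium with serum. The labels do not name the promoter that drives the receptor, do not say whether the overexpressing line is a clone, and state no time of exposure. Replicates are called biological, with no mention of separate cultures, so the p-values below measure the spread between these arrays. Receptor and cumate cannot be told apart in GPR39 against mock, and agonist and a possible lack of cumate cannot be told apart in agonist against GPR39.

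Cadherins are membrane proteins with repeated extracellular domains that hold neighbouring cells together when calcium is bound. Classical cadherins pass that contact to actin through catenins, whereas protocadherins lack the catenin-binding tail and act through other partners. Clustered protocadherins lie in a row on the chromosome, each with a promoter of its own, and the combination that a cell uses serves as an identity code in neurons. Protocadherins outside the clusters are grouped by their cytoplasmic motifs into a delta-1 family (here PCDH1, PCDH7, PCDH9 and PCDH11X) and a delta-2 family (PCDH8, PCDH10, PCDH17, PCDH18 and PCDH19), several of which bind regulators of the actin cytoskeleton.

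Values are log2 signals per probe set, and a probe set was tested where it exceeded the 40th percentile of its array (2.63 to 2.70) on at least 3 of the 9 arrays. Array medians lay between 3.13 and 3.22. Mock replicate 1 stood apart from its group: its mean correlation across probe sets was 0.985 with the other mock arrays and 0.988 with the GPR39 arrays, whereas each of the other 8 arrays correlated best with its own group (0.987 to 0.990). The probe set for GPR39 itself read 2.43 to 2.65 and lay at or below the 40th percentile on all 9 arrays, so the labels could not be checked by it, and the position of its probes is unknown here. Of 9 kidney and epithelial marker genes all 9 passed the filter, and the mean level of the list was 5.69 to 5.84 in mock, 5.74 to 5.79 in GPR39 and 5.71 to 5.78 in the agonist arrays. Levels differed widely within the list, from PAX8 at 2.68 to 3.06, below the median of each array, to EPCAM at 8.18 to 8.48. A lower signal in such bulk RNA cannot tell fewer expressing cells from less RNA per cell.

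Of the 36 genes, 13 passed the filter, namely CDH23, CDH26, PCDH1, PCDH7, PCDH8, PCDH9, PCDH10, PCDH17, PCDH18, PCDH19, PCDH20, PCDHB2 and PCDHB18P. The other 23 had values between 1.25 and 2.81 and were not tested. Changes past the threshold were measured in 5 genes, PCDH9, PCDH17, PCDH7, PCDH18 and PCDHB2, and in no comparison for the other 8. These 5 genes exceeded the 40th percentile on all 9 arrays. The 3 comparisons share arrays with each other, so their results are not independent.

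Cells labelled with GPR39 and cumate were compared with mock to ask what goes with the receptor label. PCDH9 fell, by 0.63 on the log2 scale, and was the 1 gene of the 13 past the threshold (limma, Benjamini-Hochberg adjusted p at most 0.05). That is 7.69% of the tested members, where 1.17% of all 33376 tested probe sets passed (0.749% higher and 0.422% lower). Without adjustment, 5 of the 13 had p under 0.05, all 5 of them lower in the GPR39 group, where 14.8% of all tested probe sets did (7.30% higher and 7.53% lower). The median change of the 13 genes was -0.11, beside 0.006 over all tested probe sets. Changes of the 12 that did not pass ranged from -0.51 to 0.13, with adjusted p from 0.0701 to 0.999. With each array centred on its 75th percentile, 74.7% of all probe sets past the threshold were higher instead of 63.9%, and the count of members stayed at 1. Without mock replicate 1 the balance turned, with 31.4% higher among 1323 probe sets past the threshold instead of 391, and 2 members passed, both lower; without GPR39 replicate 3 no member passed (0) and 108 probe sets did.

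Agonist-treated cells were compared with the GPR39 group to ask what goes with TC-G-1008 where both groups carry the receptor label. PCDH9 and PCDH17 rose while PCDH7 and PCDHB2 fell. These 4 of 13 tested genes (30.8%) stand beside 9.06% of all tested probe sets (3.12% higher and 5.95% lower). The median change of the 13 genes was 0.11, beside 0.014 over all tested probe sets. Without adjustment 6 of the 13 had p under 0.05, 3 in each direction, where 23.4% of all tested probe sets did (9.86% higher and 13.5% lower). The 9 genes that did not pass changed by -0.30 to 0.33, with adjusted p from 0.0541 to 0.998. The member count fell to 1 without GPR39 replicate 2 or 3 or agonist replicate 1 or 2, and to 2 without GPR39 replicate 1. Over all probe sets, 1509 to 1583 passed without a GPR39 array and 2015 without agonist replicate 1, instead of 3025.

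Agonist-treated cells were also compared with mock, a difference that holds receptor label and agonist together. PCDH9 rose, while PCDH7, PCDH18 and PCDHB2 fell. Again 4 of 13 tested genes (30.8%) passed, beside 15.0% of all tested probe sets (6.11% higher and 8.94% lower). The median change of the 13 was 0.05, beside 0.017 over all tested probe sets, and without adjustment 6 had p under 0.05, 3 in each direction, where 28.8% of all tested probe sets did (13.1% higher and 15.8% lower). The 9 genes that did not pass changed by -0.14 to 0.38, with adjusted p from 0.105 to 0.977. Centring each array on its 75th percentile turned the balance of all probe sets past the threshold from 40.6% higher to 56.2% higher, while the members stayed at 1 higher and 3 lower.

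**Figure D1:**
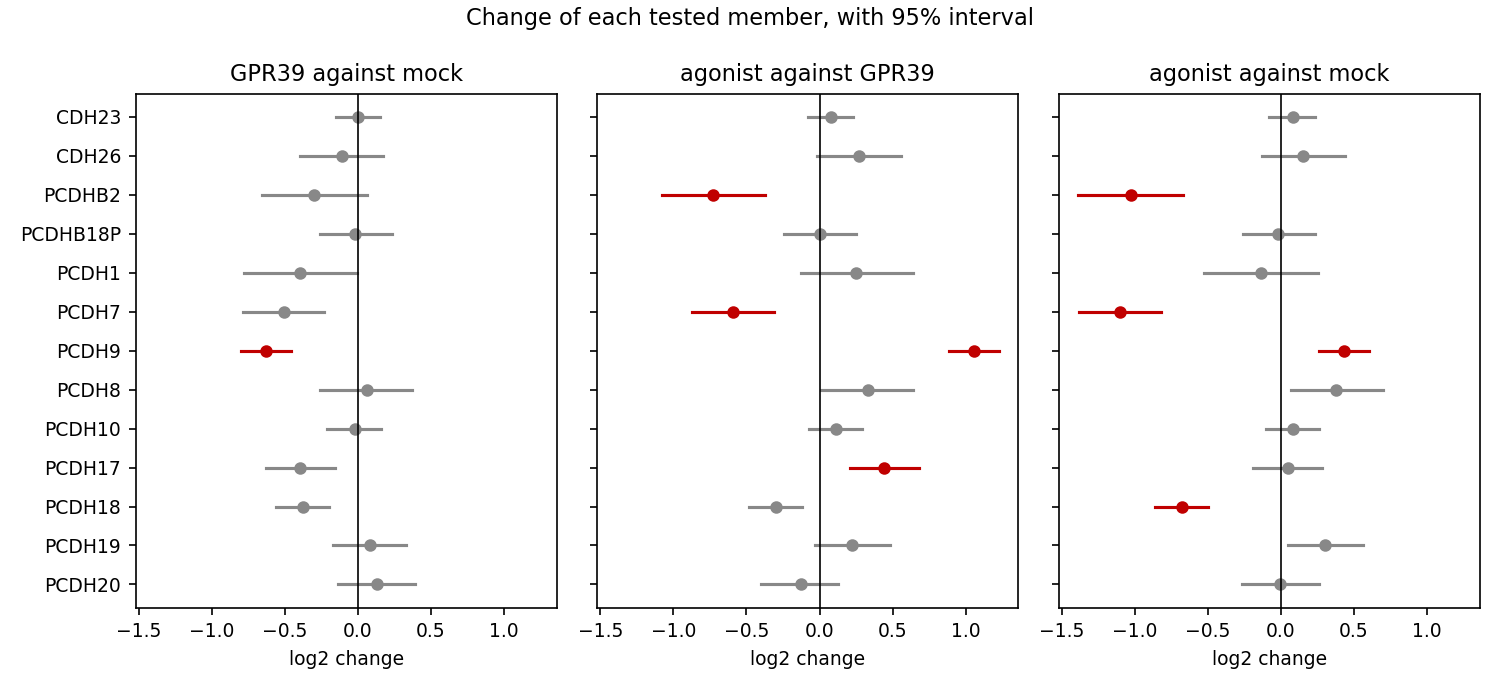
Log2 change of each of the 13 tested genes in the 3 comparisons; points are the fitted changes, bars the 95% intervals, and red marks an adjusted p at most 0.05. PCDH9 lies at -0.63, 1.06 and 0.43, while PCDH7, PCDH18 and PCDHB2 lie below 0 in every panel.

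Among the delta-1 genes, PCDH9 is a homophilic adhesion protein best known from the developing brain. It read 6.24, 6.24 and 6.34 on the mock arrays, 5.56, 5.77 and 5.60 on the GPR39 arrays, and 6.72, 6.69 and 6.71 on the agonist arrays. The 3 groups do not overlap, with the GPR39 arrays lowest and the agonist arrays highest. From mock to GPR39 it fell by 0.63 ± 0.07 (SE, n = 3 arrays a group; 95% interval -0.80 to -0.46; limma adjusted p = 0.00869). From GPR39 to agonist it rose 2.09-fold (log2 change 1.06 ± 0.07, interval 0.89 to 1.23; limma adjusted p = 0.000207). The agonist group therefore lay above mock too, by 0.43 ± 0.07 (interval 0.26 to 0.60; limma adjusted p = 0.00607). The fall from mock passed in 14 of 16 alternatives and missed the threshold with the replicate block and without GPR39 replicate 3. Without that array it was -0.61 (limma adjusted p = 0.0556, range over alternatives 0.00374 to 0.0556). Both rises passed in all 16 alternatives. The other PCDH9 probe set was too dim to test, as were the antisense RNAs PCDH9-AS2 and PCDH9-AS3.

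PCDH7, a delta-1 protocadherin also known as a partner of the phosphatase inhibitor SET, went from high in mock to low in the agonist group. It read 6.92, 7.34 and 7.39 in mock, 6.63, 6.73 and 6.76 in GPR39, and 6.14, 6.10 and 6.12 in agonist. No array of a group overlaps another group, and mock replicate 1 lies nearest to the GPR39 arrays. Agonist against mock gave a fall of 1.10 ± 0.12 (0.467-fold, interval -1.38 to -0.82; limma adjusted p = 0.000839). Agonist against GPR39 gave a fall of 0.59 ± 0.12 (interval -0.87 to -0.31; limma adjusted p = 0.0218). That second call was lost without any 1 of the GPR39 or agonist arrays (adjusted p 0.0556 to 0.0807; 0.00359 to 0.0807 over all alternatives), with changes of -0.63 to -0.56. GPR39 against mock gave -0.51 ± 0.12, which did not pass (limma adjusted p = 0.107). Without mock replicate 1 that change was -0.66 and passed (limma adjusted p = 0.00764; range over alternatives 0.00764 to 0.281).

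PCDH1, the delta-1 member expressed in airway epithelium, read 3.40, 3.82 and 3.40 in mock, 2.83, 3.40 and 3.20 in GPR39, and 3.52, 3.40 and 3.27 in agonist. The groups overlap, and none of its 3 changes (-0.40, 0.25 and -0.14, each ± 0.17) passed. PCDH11X did not pass the filter, and nor did its partner gene on the Y chromosome.

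**Figure D2:**
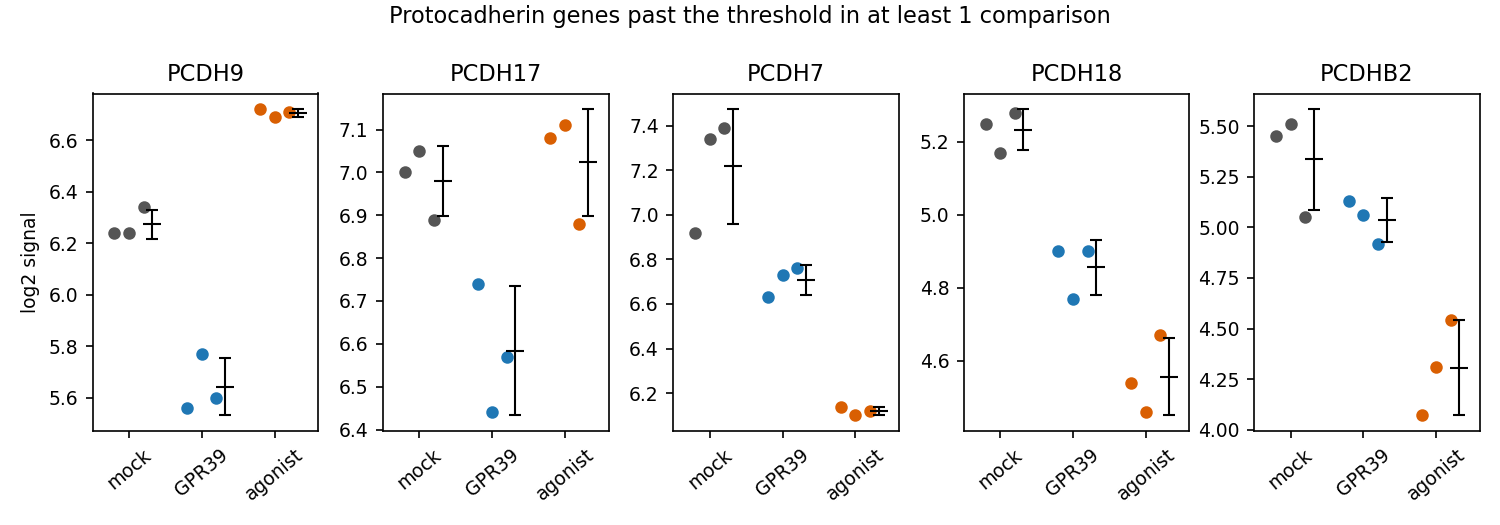
Log2 signal on each array (points) of the 5 genes past the threshold in at least 1 comparison, with the group mean and SD (bars, n = 3) beside them; each panel has its own axis, which does not start at 0. The GPR39 arrays are lowest for PCDH9 and PCDH17, and the agonist arrays are lowest for PCDH7, PCDH18 and PCDHB2.

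Of the delta-2 genes, PCDH17, which recruits actin regulators to cell contacts, read 7.00, 7.05 and 6.89 in mock, 6.74, 6.44 and 6.57 in GPR39, and 7.08, 7.11 and 6.88 in agonist. The GPR39 arrays lie below all others, and mock and agonist arrays overlap. It rose from GPR39 to agonist by 0.44 ± 0.10 (1.36-fold, interval 0.21 to 0.68; limma adjusted p = 0.0325). The change from mock to GPR39 was -0.40 ± 0.10 and did not pass (limma adjusted p = 0.129), and agonist against mock was 0.05 (interval -0.19 to 0.28). The other PCDH17 probe set read 5.00, 5.11 and 4.95 in mock, 4.68, 5.09 and 5.07 in GPR39, and 5.61, 5.44 and 5.27 in agonist. There the agonist arrays lie above both other groups, by 0.50 ± 0.13 against GPR39 (limma adjusted p = 0.0565) and 0.42 ± 0.13 against mock (limma adjusted p = 0.0726), and neither passed. The 2 probe sets thus differ in where mock lies. The rise from GPR39 to agonist missed the threshold in 9 of 17 alternatives (adjusted p 0.0191 to 0.109), among them those without GPR39 replicate 2 or 3 (0.37 and 0.44), agonist replicate 1 or 2 (0.41 and 0.40) or mock replicate 2 (0.44).

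PCDH18, a delta-2 protocadherin that binds the adaptor protein DAB1, read 5.25, 5.17 and 5.28 in mock, 4.90, 4.77 and 4.90 in GPR39, and 4.54, 4.46 and 4.67 in agonist. The groups do not overlap and step down from mock to GPR39 to agonist. The fall from mock to agonist was 0.68 ± 0.08 (fold 0.624, interval -0.86 to -0.50; limma adjusted p = 0.00104), and it passed in all 16 alternatives. Neither step passed alone: -0.38 ± 0.08 for GPR39 against mock (limma adjusted p = 0.0701) and -0.30 ± 0.08 for agonist against GPR39 (limma adjusted p = 0.0541). Over alternatives these adjusted p ran from 0.0385 to 0.23 and from 0.0302 to 0.162, and the second step passed without agonist replicate 3 (-0.35, limma adjusted p = 0.0438).

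The remaining delta-2 genes, and PCDH20, which is outside both delta families as listed here, stayed short of the threshold. PCDH8, an activity-regulated protocadherin of neurons, read 2.42 to 2.76 on the mock and GPR39 arrays and 3.11, 2.68 and 3.04 on the agonist arrays. All 3 agonist arrays exceeded the mock arrays (0.38 ± 0.14, interval 0.07 to 0.70; limma adjusted p = 0.105), and without agonist replicate 2 the change was 0.52 and passed (limma adjusted p = 0.0337; range over alternatives 0.0337 to 0.26). PCDH8 lay near the filter, with 2 mock arrays, 1 GPR39 array and 1 agonist array at or below the 40th percentile. PCDH19, the X-linked epilepsy gene, read 3.11 to 3.34 in mock, 3.32 to 3.38 in GPR39 and 3.77, 3.39 and 3.52 in agonist. Its agonist arrays lay above those of both other groups, and its change of 0.30 ± 0.11 from mock did not pass (interval 0.05 to 0.56; limma adjusted p = 0.108). PCDH10, which binds a complex that drives actin branching, gave changes of -0.02, 0.11 and 0.08, each ± 0.08, and PCDH20 gave 0.13, -0.13 and -0.01, each ± 0.11.

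Several of these dim genes carry exactly equal values on different arrays: 6 of 9 arrays for PCDH10, 5 for CDH23 and 4 for PCDH1. Among the 5 genes past the threshold no value occurs on more than 2 arrays. What made the equal values was not tested.

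CDH23 and PCDH15 together form the tip links of inner-ear hair cells. CDH23 read 3.20 to 3.22 on the mock and GPR39 arrays and 3.25, 3.22 and 3.40 on the agonist arrays, with changes of 0.08 ± 0.07 from either group, and PCDH15 did not pass the filter. CDH26, a cadherin of epithelia in allergic inflammation, read 3.20 to 3.25 in mock, 2.86 to 3.38 in GPR39 and 3.31 to 3.47 in agonist. Its agonist arrays lay above mock (0.15 ± 0.12, limma adjusted p = 0.463) and overlapped GPR39 (0.27 ± 0.12, limma adjusted p = 0.244). PCDH12, a protocadherin of endothelium, did not pass the filter.

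PCDHB2 was the 1 clustered protocadherin of 16 that passed the filter. It read 5.45, 5.51 and 5.05 in mock, 5.13, 5.06 and 4.92 in GPR39, and 4.07, 4.31 and 4.54 in agonist. Every agonist array lies below every other array, whereas mock replicate 3 falls among the GPR39 arrays. It fell by 1.03 ± 0.16 from mock to agonist (0.491-fold, interval -1.39 to -0.67; limma adjusted p = 0.00364), which passed in all 16 alternatives. It fell by 0.73 ± 0.16 from GPR39 to agonist (interval -1.08 to -0.37; limma adjusted p = 0.0261). That call was lost without any 1 of the GPR39 arrays or without agonist replicate 1 or 2, with changes of -0.78 to -0.61. The limma adjusted p was then 0.0607 to 0.0912, and 0.0166 to 0.0912 over all alternatives. With the replicate block that call was lost too. GPR39 against mock gave -0.30 ± 0.16 (interval -0.66 to 0.06; limma adjusted p = 0.411).

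**Figure D3:**
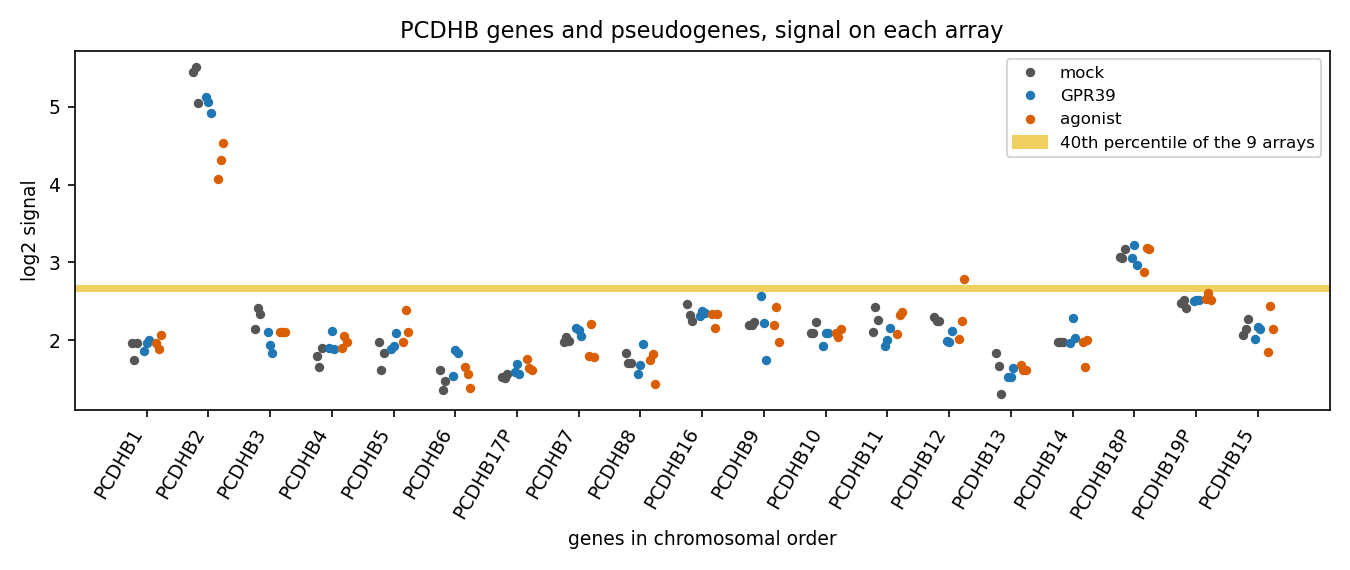
Log2 signal on each of the 9 arrays (points, coloured by group) of the 19 PCDHB genes and pseudogenes, ordered along chromosome 5; the band spans the 40th percentile of the arrays, 2.63 to 2.70. PCDHB2 (4.07 to 5.51) and the pseudogene PCDHB18P (2.88 to 3.22) exceed the band on all 9 arrays, and PCDHB12 does on 1.

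The other 15 PCDHB genes read 1.31 to 2.78, and 1 of them, PCDHB12, exceeded the 40th percentile on any array. PCDHB18P, a pseudogene, read 2.88 to 3.22 with changes of -0.02, 0.00 and -0.02 (each ± 0.11), and the other pseudogenes PCDHB17P and PCDHB19P did not pass the filter. PCDHB genes are close copies of each other, so probe sets may share signal between them, and a value can be attributed to a named copy only as far as the array separates them. Within that limit, all 3 agonist arrays were the lowest for PCDHB2 while the pseudogene's groups overlapped.

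The promoters of the cluster are shown because PCDHB2 and its dim neighbours share a sequence element just before their starts. Clustered protocadherin promoters are known for a conserved element around a CGCT box, to which the insulator protein CTCF binds. The letters GGTGGCGCT, which contain CGCT and were picked after looking at these promoters, were searched on both strands of RefSeq promoters of GRCh38.p14 (300 bases each, 250 before and 50 after the start). They occur in 13 of the 14 PCDHB promoters found, all but PCDHB1, each time on the gene's strand. Of all 35116 promoters, these included, 0.302% hold them on the gene's strand and 0.501% on either strand. CGCT alone occurs in 70.0% of all promoters and in 26 of the 28 promoters of members found. In capitals is GGTGGCGCT, 5' to 3' on the plus strand, first in the 250 bases before the start of PCDHB2 (chr5:141094365-141094614), where the match begins 60 bases before the start.
PCDHB2: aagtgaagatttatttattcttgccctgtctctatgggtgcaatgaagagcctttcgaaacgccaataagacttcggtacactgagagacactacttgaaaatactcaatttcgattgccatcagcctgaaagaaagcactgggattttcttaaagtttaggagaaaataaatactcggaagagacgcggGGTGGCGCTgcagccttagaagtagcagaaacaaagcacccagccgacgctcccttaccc
The same element stands in 28-base stretches of genes that read below the 40th percentile on all 9 arrays: PCDHB3 (chr5:141100397-141100424), PCDHB4 (chr5:141121727-141121754) and PCDHB15 (chr5:141245318-141245345), with the stretch of PCDHB2 (chr5:141094548-141094575) set beside them for comparison.
PCDHB2: gacgcggGGTGGCGCTgcagccttagaa
PCDHB3: aacgcatGGTGGCGCTgttgactaagaa
PCDHB4: gacgcagGGTGGCGCTgcaggctaagtt
PCDHB15: aacgcatGGTGGCGCTgcaggctaaggc
The match begins 69, 84 and 70 bases before the start in PCDHB3, PCDHB4 and PCDHB15. A match is a description of the letters only. TGANTCA, a binding sequence of the transcription factor AP-1, occurs in 7.71% of all promoters and in 1 of the 28 members' promoters (PCDH9-AS3). GGAATG, bound by TEAD factors, occurs in 14.0% of all promoters and in 3 of the 28 (PCDHB1, PCDHB7 and PCDHB13). Neither set of letters is in the window of PCDH9, PCDH17, PCDH7, PCDH18 or PCDHB2.

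Genes that work with cadherins and protocadherins were described from lists of partners, each of few genes and chosen with earlier results of these data known. Their counts are to be read beside the shares of all tested probe sets that passed, 1.17% in GPR39 against mock (0.749% higher, 0.422% lower), 9.06% in agonist against GPR39 (3.12% higher, 5.95% lower) and 15.0% in agonist against mock (6.11% higher, 8.94% lower), and the lists' medians beside 0.006, 0.014 and 0.017. Of 12 catenins and junction linkers, 4 have a named probe set and were tested: 0 passed in GPR39 against mock, 2 fell in agonist against GPR39 and 3 fell in agonist against mock (beside 0.422%, 5.95% and 8.94% lower among all probe sets), with medians of 0.01, -0.28 and -0.30. JUP, the plakoglobin that links cadherins to the cytoskeleton, read 7.54, 7.41 and 7.32 in mock, 7.39, 7.27 and 7.26 in GPR39, and 6.84, 6.79 and 7.00 in agonist. All agonist arrays of JUP lie below all others, and it fell by 0.55 ± 0.09 from mock (limma adjusted p = 0.00486) and by 0.43 ± 0.09 from GPR39 (limma adjusted p = 0.022). ARVCF, a catenin of the p120 family, fell by 0.41 ± 0.07 from GPR39 (limma adjusted p = 0.0114) and by 0.28 ± 0.07 from mock (limma adjusted p = 0.0337). PKP4, of the same family, fell by 0.32 ± 0.07 from mock (limma adjusted p = 0.021). VCL, the remaining tested gene of this list, lay above mock on all GPR39 and agonist arrays. Its differences from mock, 0.21 ± 0.08 and 0.16 ± 0.08, did not pass (limma adjusted p = 0.281 and 0.213). The catenin genes CTNNA1, CTNNB1 and CTNND1 are in the list but have no named probe set here.

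Of 12 desmosome genes, 6 were tested. DSG2, the desmosomal cadherin of simple epithelia, fell in the agonist group by 0.36 ± 0.06 from GPR39 (limma adjusted p = 0.0108) and by 0.31 ± 0.06 from mock (limma adjusted p = 0.0117). DSP, desmoplakin, which anchors desmosomes to keratin, moved the other way from GPR39 to agonist, rising by 0.40 ± 0.08 (limma adjusted p = 0.018). No desmosome gene passed in GPR39 against mock (0 of 6, beside 1.17% of all probe sets), and the list medians were 0.06, -0.26 and -0.13.

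Of 19 other members and modifiers of the cadherin superfamily, 14 were tested. FJX1, homologous to a kinase that modifies Fat and Dachsous cadherins in flies, read 7.00, 6.88 and 6.80 in mock, 7.22, 7.20 and 7.19 in GPR39, and 7.66, 7.65 and 7.81 in agonist. Its groups do not overlap, and it rose by 0.50 ± 0.08 from GPR39 to agonist (limma adjusted p = 0.00746) and by 0.81 ± 0.08 from mock to agonist (limma adjusted p = 0.000425). CLSTN3, a calsyntenin of synapses, fell by 0.30 ± 0.07 and 0.40 ± 0.07 in the same comparisons (limma adjusted p = 0.0398 and 0.00815). FAT3, a giant cadherin of retina and muscle development, read 5.04, 5.74 and 5.86 in mock, 4.67, 4.29 and 4.37 in GPR39, and 4.59, 4.59 and 4.27 in agonist. Mock lies above both other groups, with mock replicate 1 nearest to them. FAT3 fell by 1.06 ± 0.22 from mock to agonist (limma adjusted p = 0.0134), a call lost without mock replicate 2 (up to 0.0522 over alternatives, with 0.00223 and a change of -1.32 without mock replicate 1). GPR39 against mock gave -1.11 ± 0.22 and did not pass (limma adjusted p = 0.0614). List medians were -0.09, 0.07 and -0.09.

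All 8 transcriptional repressors of cadherin genes were tested, and 2 rose in agonist against mock (beside 6.11% higher among all probe sets), with 0 past the threshold in the other comparisons and medians of 0.18, 0.12 and 0.12. SNAI2, a zinc finger repressor of E-cadherin, read 6.62, 6.35 and 6.46 in mock, 6.82, 7.01 and 6.87 in GPR39, and 7.30, 7.24 and 7.14 in agonist, which makes 3 groups that do not overlap. It rose by 0.75 ± 0.09 from mock to agonist (limma adjusted p = 0.00142). SNAI1, of the same family, rose by 0.84 ± 0.17 (limma adjusted p = 0.0128). The E-cadherin gene itself has no named probe set here.

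All 10 genes for promoter choice at the clusters were tested, which are CTCF, cohesin and its regulators, and modifiers of DNA methylation. CTCF read 9.12 to 9.27 on all 9 arrays, with changes of -0.05, 0.04 and -0.01, each ± 0.06. In agonist against mock the cohesin subunits STAG2 and SMC3 fell by 0.36 ± 0.08 and 0.27 ± 0.06 (limma adjusted p = 0.018 and 0.0221), and WAPL, which releases cohesin from DNA, rose by 0.30 ± 0.08 (limma adjusted p = 0.0456). None of the 10 passed in the other comparisons (0 in each), and the medians were -0.07, -0.10 and -0.18.

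Of 11 genes of protocadherin signalling, 6 were tested. ABI1, a subunit of the WAVE complex that drives actin branching, rose in GPR39 against mock by 0.46 ± 0.06 (limma adjusted p = 0.015) and in agonist against mock by 0.30 ± 0.06 (limma adjusted p = 0.0144). MARCKS, a membrane-bound actin crosslinker, fell by 0.57 ± 0.09 from GPR39 to agonist (limma adjusted p = 0.00621) and by 0.69 ± 0.09 from mock (limma adjusted p = 0.00138). PTK2, the focal adhesion kinase, fell by 0.25 ± 0.06 from mock (limma adjusted p = 0.0304). The medians were 0.03, -0.16 and -0.10. Of 4 nectins, which are adhesion proteins beside cadherins in junctions, NECTIN1 rose by 0.32 ± 0.08 and 0.34 ± 0.08 in the agonist group against GPR39 and mock (limma adjusted p = 0.0428 and 0.0227). Of 5 tested genes of cadherin shedding and turnover, NCSTN, a gamma-secretase subunit, fell by 0.40 ± 0.07 and 0.48 ± 0.07 in the same comparisons (limma adjusted p = 0.0147 and 0.0039).

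**Figure D4:**
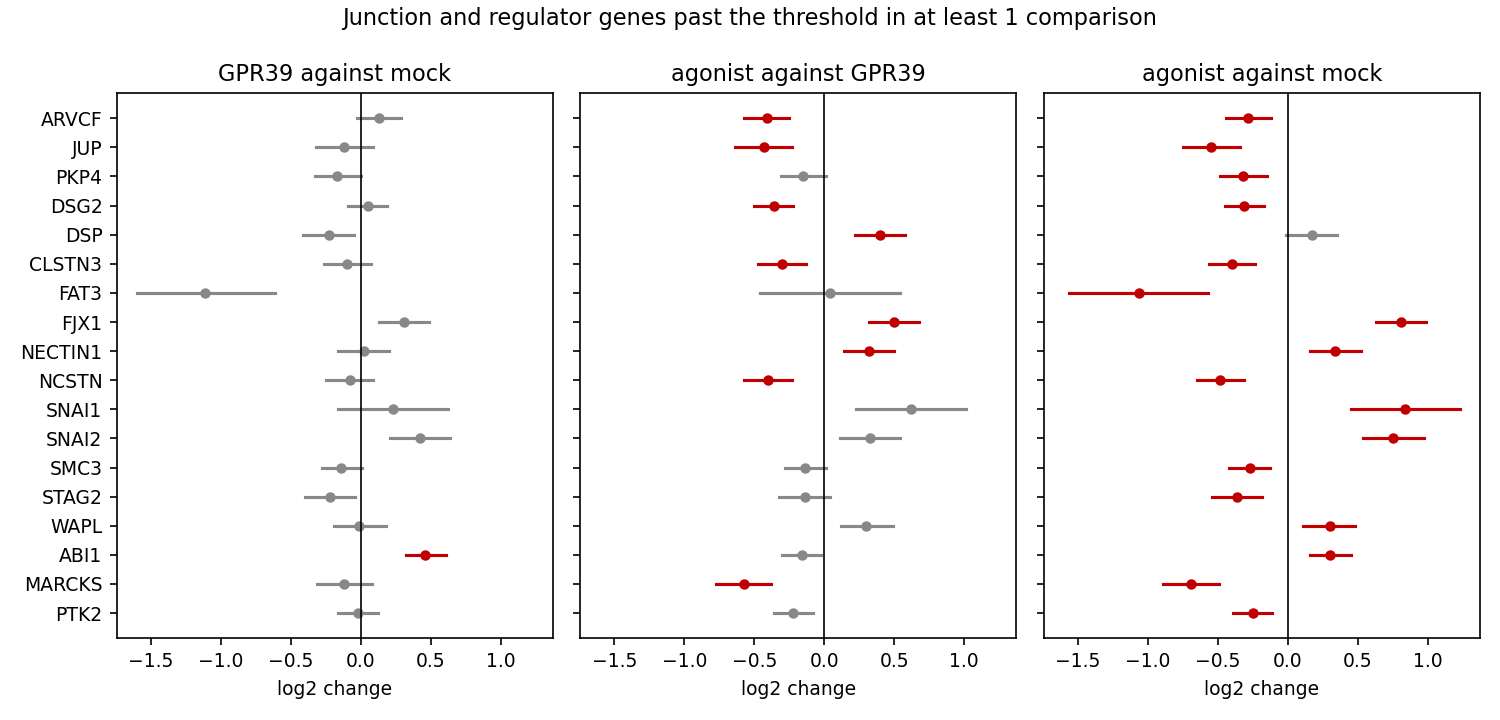
Log2 change of the partner genes past the threshold in at least 1 comparison; points are fitted changes, bars 95% intervals, and red marks an adjusted p at most 0.05. JUP, DSG2, NCSTN and MARCKS lie below 0 in both agonist panels, and FJX1 and NECTIN1 lie above 0 in both.

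Some of these partner calls rest on few arrays or on the processing. In agonist against GPR39, the calls of ARVCF, DSG2, FJX1 and MARCKS passed in all 16 alternatives. JUP missed the threshold without any 1 GPR39 array or without agonist replicate 1 or 2, DSP without GPR39 replicate 1 or 3 or agonist replicate 1 or 2, and NCSTN without GPR39 replicate 1 or 3. CLSTN3 missed it without any 1 of the 9 arrays and NECTIN1 without any but agonist replicate 2 (limma adjusted p up to 0.131 and 0.137). Both also missed it with centring on the 75th percentile, with quantile normalization and with no filter. In agonist against mock, the calls of JUP, CLSTN3, FJX1, NCSTN, SNAI1, SNAI2 and MARCKS passed in all 16. DSG2 missed the threshold with centring on the 75th percentile (-0.24, limma adjusted p = 0.0527, lowest 0.00145 over alternatives). With the same centring PKP4, SMC3, ARVCF and PTK2 missed it too. ARVCF, PTK2 and WAPL also missed it with quantile normalization and with no filter. PKP4 missed it without agonist replicate 2 or mock replicate 3, NECTIN1 without agonist or mock replicate 1 or 3, STAG2 without agonist replicate 1 or 3 or mock replicate 3, and SMC3 without agonist replicate 3 or mock replicate 2 or 3. ABI1 missed it without mock replicate 2, and in GPR39 against mock also without any 1 GPR39 array. WAPL missed it without any 1 of the 9 arrays, ARVCF without any but agonist replicate 1, and PTK2 without any but mock replicate 1 (limma adjusted p up to 0.11, 0.114 and 0.102). The replicate block, and the fits of only the 2 groups compared, each lost some of these calls too.

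Markers of other cell types were read beside these genes. Named probe sets exist for only 2 of 6 fibroblast, 2 of 6 neuronal and 3 of 4 keratinocyte markers listed. Of the keratinocyte markers, KRT14 exceeded the 40th percentile on all 9 arrays (2.80 to 3.87), KRT1 on 1 and KRT5 on 0. KRT14 changed by -0.05, 0.12 and 0.07 in the 3 comparisons, each ± 0.29, and none of these passed. The fibroblast markers DCN and LUM and the endothelial markers PECAM1 and EMCN exceeded the 40th percentile on 0 arrays. Of the other endothelial markers, CLDN5, ESAM and KDR exceeded it on all 9, VWF on 8 and TIE1 on 1. ESAM read 3.54 to 4.01 in mock, 3.98 to 4.02 in GPR39 and 4.01 to 4.22 in agonist, a change of 0.39 ± 0.12 in agonist against mock that did not pass (limma adjusted p = 0.0676). The mean of the 7 named endothelial markers was 2.76 to 2.83 in mock, 2.83 to 2.94 in GPR39 and 2.87 to 2.92 in agonist. Of the leukocyte list 4 genes are named, and their mean level was 3.78 to 3.90 in mock, 4.13 to 4.33 in GPR39 and 4.28 to 4.45 in agonist. CD68, a lysosomal protein of macrophages also present in other cells, rose by 0.90 ± 0.12 in GPR39 against mock (limma adjusted p = 0.0124) and by 1.23 ± 0.12 in agonist against mock (limma adjusted p = 0.0004), and no other member of the list passed. The first of these calls was lost without any 1 GPR39 array, with the replicate block and with only the 2 groups (limma adjusted p up to 0.0688 over alternatives). TYROBP, a signalling adaptor of myeloid cells, read 2.59 to 3.20 in mock, 2.94 to 3.68 in GPR39 and 3.37 to 3.62 in agonist. All its agonist arrays lay above mock, and its differences from mock, 0.49 ± 0.21 in the GPR39 group and 0.68 ± 0.21 in the agonist group, did not pass (limma adjusted p = 0.334 and 0.0719). CD14 and LAPTM5 differed from mock by 0.01 to 0.16 with groups that overlap, and neither passed. The mean of the leukocyte list thus lay higher on every GPR39 and agonist array than on every mock array, that of the endothelial list on every agonist array than on every mock array, and their part in the changes of PCDH9, PCDH7, PCDH18 and PCDHB2 was not tested. Of the neuronal list MAP2 fell by 0.40 ± 0.08 in agonist against mock (limma adjusted p = 0.0139). The MAP2 call was lost with only the arrays of the 2 groups compared (limma adjusted p up to 0.0535 over alternatives). STMN2, also named in that list, exceeded the 40th percentile on 2 arrays. VIM fell by 0.46 ± 0.07 and KRT18 rose by 0.29 ± 0.06 in agonist against mock (limma adjusted p = 0.00368 and 0.0158). The median change of their kidney and epithelial list was 0.06. The KRT18 call was lost without mock replicate 2 or with only the arrays of the 2 groups (limma adjusted p up to 0.0594 over alternatives).

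**Figure D5:**
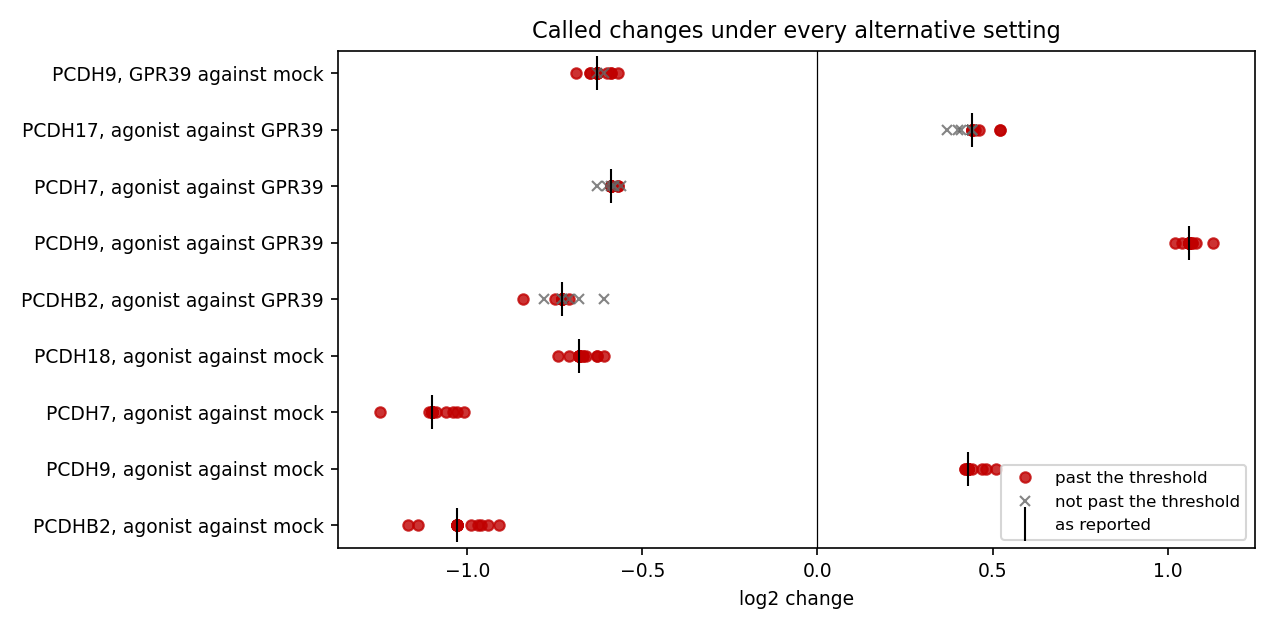
Log2 change of each member call (rows) under the alternative settings, except that of every probe set of a gene, which is not drawn. Red points passed the threshold, grey crosses did not, and the black line is the value as reported. No change crosses 0, and the 4 calls of agonist against mock and the rise of PCDH9 from GPR39 to agonist passed in all 16 settings.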

How the data were processed

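Expression in 9 HEK293 samples was measured on single-colour Affymetrix arrays, 3 per group. The deposited table holds 53617 probe sets as log2 signals, judged from the values, and the submitters' processing notes name MAS5; normalization between arrays was not given in the sources used here. Arrays have no read depth; their number limits the precision. The platform annotation gives 1 gene symbol for 16098 probe sets, several for 0 and none for 37519; all 16098 were found in RefSeq (GRCh38.p14) by Entrez identifier.

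The 33376 probe sets above the 40th percentile on at least 3 arrays were tested, with all 9 arrays in 1 fit (limma 3.58.1, R 4.3.3, lmFit and eBayes, 6 residual and 2.12 prior degrees of freedom), two-sided, with Benjamini-Hochberg adjustment over all of them and a threshold of 0.05. Errors are standard errors of the fit. The fit was tested on simulated data. Named genes are every member past the threshold with its value on each array, the other tested members, and from each partner list up to 4 genes with the smallest p among those past the threshold; the members and lists were chosen with earlier results of these data known. CTCF, VCL and the markers that did not pass were named after their values were seen. Alternatives were no filter, a 60th percentile filter, quantile normalization, centring on the 75th percentile, a replicate block, only the arrays of the groups compared, a mean-variance trend, every probe set of a gene, and leaving out each array.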

Additional observations from a re-analysis of the deposited data

How the results depend on the processing

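Of 603 values of the members under the alternatives, 574 kept their side of the threshold, 23 fell short of it and 6 newly passed it. No change that passed, as reported or under an alternative, turned its direction (0 values), whereas changes near 0 that passed nowhere could, such as that of CDH23 in GPR39 against mock (-0.01 to 0.06). Of 510 values of the partner and marker genes named, 391 kept their side, 119 fell short and 0 changed direction. These 510 cover only comparisons in which the gene had passed as reported, so none could newly pass. The 603 cover every tested member in every comparison, whether it had passed or not. The shares that fell short are therefore not comparable between members and partners. In GPR39 against mock the 1 member past the threshold became 2 with the 60th percentile filter, which added PCDH18, and 0 to 2 when each array was left out (0 without GPR39 replicate 3, 2 without mock replicate 1). In agonist against GPR39 PCDH9 alone passed in every alternative. The 4 members became 5 with the 60th percentile filter, which added PCDH18, and 1 to 4 when each array was left out. They were 1 without GPR39 replicate 2 or 3 or agonist replicate 1 or 2, and 2 without GPR39 replicate 1. Without agonist replicate 3 they were 4, with PCDH18 in place of PCDH7. In agonist against mock the count was 4 or 5 throughout.

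Over all probe sets, the 391 of GPR39 against mock became 637 with the 60th percentile filter, 670 with a mean-variance trend, 190 with only the 2 groups, and 108 to 1323 when each array was left out. The 1323, without mock replicate 1, were 416 higher and 907 lower and held 375 of the 391; each of the other 5 mock and GPR39 arrays left out gave 108 to 196. The 3025 of agonist against GPR39 became 1509 to 3119 when each array was left out (1509 to 1583 without a GPR39 array, 2015 without agonist replicate 1), and the 5022 of agonist against mock became 3133 with only the 2 groups and 3493 to 4947 when each array was left out.

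With the replicate block, GPR39 against mock gave 0 members and 150 probe sets, agonist against GPR39 gave 2 members and 1819 probe sets, and agonist against mock gave 5 members and 3955 probe sets. Same-numbered arrays did not deviate together (correlations of -0.101 to 0.065), so the numbers were not taken to pair the samples. Causes of these shifts were not tested.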
